A study of Mus musculus with 9 samples.

Results

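Matrix metalloproteinases (MMPs), proteases of the ADAMTS family and tissue inhibitors of metalloproteinases (TIMPs) were followed in the mouse spinal cord after contusion, with and without FIPI, an inhibitor of phospholipase D. The members were the protein-coding genes of the count table whose GENCODE symbol is Mmp, Adamts or Timp followed by a number, with no use of their values. They came to 45 of the 52550 genes in the table, made up of 22 MMP, 19 ADAMTS and 4 TIMP genes. Messenger RNA of a piece of cord around the epicenter, taken at day 7, was sequenced in 3 mice of each of 3 groups, and all 9 were adult females of the strain C57BL/6N. Sham mice had the laminectomy alone and are not described as given vehicle. SCI mice received a contusion at T10 followed by injections of dimethyl sulfoxide. FIPI mice received the same contusion followed by daily intraperitoneal FIPI, and no transgene or deletion is described for any group. The comparison of SCI with Sham asks which of these genes respond to the injury and its vehicle, and that of FIPI with SCI asks which respond to the drug in injured cord.

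MMPs are zinc proteases that cut collagens, laminins, cytokines and other proteases, and most are made as inactive precursors. ADAMTS proteases are secreted and act mainly on proteoglycans of the lectican family and on the ends of procollagens. TIMPs bind the active site of these proteases and block them. In injured cord the family is known for its part in opening the blood-spinal cord barrier, in the entry of leukocytes and in the remodelling of the scar.

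Libraries held between 20806000 and 24582377 counts, and 18699 genes passed the filter on low counts. Of the 45 members, 40 passed it. Mmp1b and Mmp7 had 0 counts in every mouse, which allows no more than about 3 counts per library. Mmp20 had 1 count in all 9 mice together, and Mmp21 had at most 5 in any mouse. Adamts13, which trims von Willebrand factor, had 2, 2 and 6 counts in Sham, 3, 5 and 4 in SCI and 11, 18 and 9 in FIPI and was not tested. Mmp3, Mmp10, Mmp13 and Mmp27 passed the filter through the injured groups alone. The filter asked for 0.422 CPM in 3 mice, which 1 Sham mouse reached for Mmp3 and Mmp13 and no Sham mouse for Mmp10 and Mmp27. A higher level after injury was thus a condition of their being tested, and their values against Sham are given as a description, with no p-value. Adamts18 reached the level in 3 Sham and 3 FIPI mice but in 1 SCI mouse. Its differences from SCI are likewise given as a description, with no p-value. Neuron, astrocyte and oligodendrocyte markers were present in every mouse. Sham and injured mice separated on a first principal component that held 77.2% of the variance. The Sham 2 mouse stood nearest to the injured mice on that component and was high for several MMPs. Its neutrophil marker sum was 111.3 CPM (counts scaled to the size of each library), against 47.7 and 38.95 in the other Sham mice.

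Injury raised most of the family. Of the 40 members tested, 26 were higher and 5 lower in SCI than in Sham. A call required a log2 fold change of 0.5 or more in size together with an adjusted p under 0.05, from the quasi-likelihood test of edgeR adjusted by the method of Benjamini and Hochberg over all 18699 genes. Over all genes tested, 47.0% were called, 24.4% as higher and 22.5% as lower. The median log2 fold change of the members was 1.20, beside -0.003 for all genes. Leaving out the 4 members that passed the filter through the injured groups alone, 22 of 36 were higher and 5 lower, with a median of 0.87. Adamts18, which passed it through Sham and FIPI, is still counted among these 5. Among the MMPs, 14 of 18 were called higher and 2 lower, with a median of 2.26, and without those 4 it was 10 of 14 and 2, with a median of 1.86. Of the ADAMTS genes, 9 of 18 rose and 3 fell, with a median of 0.64, and 3 of the 4 TIMPs rose. Every SCI mouse lay above every Sham mouse for 27 members and below for 5, where 35.6% and 35.0% of all genes did so. The 27 include the 4 members that passed the filter through the injured groups alone, and the 5 include Adamts18. With the exact permutation test, 3 mice against 3 cannot give a p-value under 0.1. In whole tissue, more cells of a type and more RNA per cell cannot be told apart. Markers of macrophages and microglia summed to between 367.4 and 535.7 CPM in Sham and between 9180 and 11100 CPM in SCI, and 10 of their 11 genes rose. Those of fibroblasts went from between 365.1 and 981.4 CPM to between 9247 and 12500 CPM, with all 8 genes higher, while all 10 neuron markers fell. Endothelial markers went from between 286.6 and 312.2 CPM to between 497.8 and 530.6 CPM (5 of 7 genes higher), pericyte markers from between 339.4 and 404.1 CPM to between 673.3 and 794.4 CPM (4 of 6 higher) and osteoclast markers from between 14.8 and 24.7 CPM to between 143.3 and 155.6 CPM (4 higher of the 4 tested and 6 listed). Of the osteoclast genes not tested, Calcr had a mean of 0.506 CPM in Sham and 0.112 in SCI. Markers of cartilage and bone went from between 36.99 and 41.7 CPM to between 106.3 and 119.4 CPM (4 of 10 higher, 1 lower, 5 not called). Nearly all of the rise of that sum lay in Col10a1, with a mean of 0.078 CPM in Sham and 71.96 in SCI. Of the genes called higher, Ocstamp, Atp6v0d2, Col10a1 and Phex did not reach the filter level in every Sham mouse. A higher level after injury was a condition of their being tested. The part of all these markers in the changes of the proteases was not tested.

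**Figure D1:**
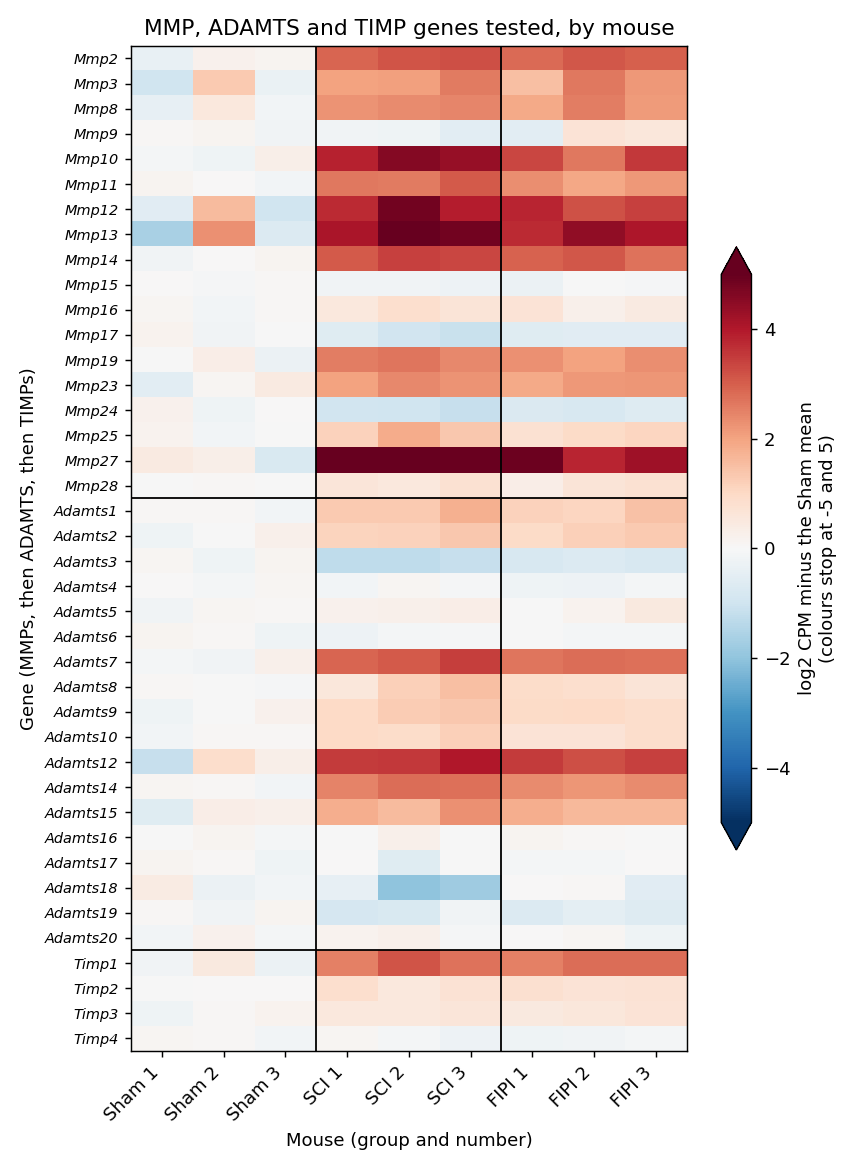
Difference in log2 CPM from the Sham mean for the 40 members tested (rows, by class) in each of the 9 mice (columns), with colours that stop at 5 in either direction. The block of red in the 6 injured mice covers most MMPs and Timp1, whereas Mmp17, Mmp24, Adamts3 and Adamts18 are blue in the SCI mice, and the Sham 2 mouse is red for Mmp3, Mmp12 and Mmp13.

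A run of 9 MMP genes lies within 427.1 kb of chromosome 9 in the build GRCm38, from the start of Mmp13 to the end of Mmp7. It holds collagenases, stromelysins, the macrophage elastase Mmp12 and the matrilysin Mmp7. In SCI, 6 of the 9 were tested. Of these, Mmp8 and Mmp12 rose, and Mmp3, Mmp10, Mmp13 and Mmp27 were the 4 members that entered the test through the injured groups alone and had higher counts in every SCI mouse than in any Sham mouse. The other 3, Mmp1b, Mmp20 and Mmp7, had 0 or 1 count over all mice. The 4 stretches of upstream sequence that follow belong to genes of the run with higher counts in SCI and were chosen because they hold the AP-1 letters, which the windows of Mmp8 and Mmp27 lack. Each holds the 100 bases before a RefSeq start on the forward strand of GRCm38.p6. Capitals mark the letters of the AP-1 motif (TGACTCA or TGAGTCA) and of the TATA box (TATAAA).
Mmp13: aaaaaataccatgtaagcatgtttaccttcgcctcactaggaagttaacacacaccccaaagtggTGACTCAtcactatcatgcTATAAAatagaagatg
Mmp12: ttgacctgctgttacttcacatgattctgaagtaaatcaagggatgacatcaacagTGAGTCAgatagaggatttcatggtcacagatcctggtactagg
Mmp3: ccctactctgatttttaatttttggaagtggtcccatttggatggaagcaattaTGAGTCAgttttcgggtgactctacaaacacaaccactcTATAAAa
Mmp10: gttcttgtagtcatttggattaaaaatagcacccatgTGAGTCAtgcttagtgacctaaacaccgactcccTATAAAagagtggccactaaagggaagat
The window of Mmp13 was chr9:7272414-7272513 and that of Mmp12, for the more downstream of its RefSeq starts, was chr9:7347274-7347373. Those of Mmp3 and Mmp10 were chr9:7445722-7445821 and chr9:7502242-7502341. In the 250 bases before each start, searched on both strands and with no overlap between the motifs, the AP-1 letters occurred in 6 of the 31 members with a RefSeq window. These were Mmp13, Mmp12, Mmp1b, Mmp3, Mmp10 and Mmp7, which all belong to the run. Of all 32851 windows, 4.46% held them, and of all 27025 genes with a window, 5.16% did. The TATA letters, as TATAAA or TTTATA, occurred in 8 members, in 12.4% of all windows and in 14.3% of all genes with a window. Mmp1b and Mmp7 carried both motifs and had no counts. A match describes the letters alone and is not a measured binding site.

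The collagenases with RNA were higher after injury. Mmp13, collagenase-3, which cuts fibrillar collagens, had 3, 81 and 9 counts in Sham, 298, 593 and 491 in SCI and 214, 377 and 283 in FIPI. Every injured mouse stood above every Sham mouse, but the Sham 2 mouse lay far above the other Sham mice. The fitted level in SCI was 14.1-fold that in Sham. Mmp8, the collagenase stored by neutrophils, had 28, 62 and 39 counts in Sham, 213, 232 and 241 in SCI and 157, 264 and 197 in FIPI and rose 5.04-fold in SCI (log2 fold change 2.33, SE 0.23, adjusted p = 9.17e-07), again with no overlap. None of the 10 neutrophil markers was called in that comparison by edgeR's quasi-likelihood test, with a median log2 fold change of -0.13. Their values ran from -1.04 (SE 0.82) for Mpo to 1.42 (SE 0.59) for Cxcr2. The part of these markers in the level of Mmp8 was not tested.

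The stromelysins were higher in SCI as well, although Mmp11 alone among them reached the filter in Sham. Mmp10, stromelysin-2, was nearly silent in Sham, with 0, 0 and 1 counts in Sham, 33, 57 and 47 in SCI and 21, 13 and 26 in FIPI. The ratio of its pooled CPM in SCI to that in Sham was 127, with a 95% interval of 22.5 to 5060 that covers counting error only. Mmp3, stromelysin-1, which activates other MMP precursors, had 3, 25 and 7 counts in Sham, 44, 45 and 66 in SCI and 28, 68 and 48 in FIPI, and its fitted level in SCI was 4.19-fold that in Sham (log2 fold change 2.07). Without the Sham 2 mouse its log2 fold change was 3.25. Mmp3 and Mmp10 share 8.39% and 8.37% of their 50-base stretches with each other, so some reads could be counted on either. Mmp11, stromelysin-3, which is activated inside the cell by furin, lies apart on chromosome 10 (chr10:75923222-75936496, reverse strand). Its levels in FPKM (the count scaled to the library and to exonic length) were 1.85, 1.75 and 1.54 FPKM in Sham, 10.5, 10.3 and 14.4 in SCI and 8.72, 6.52 and 7.87 in FIPI. The groups did not overlap, with a rise of 6.99-fold in SCI (log2 fold change 2.81, SE 0.16, adjusted p = 8.27e-09). Of its exonic bases, 5.58% are shared with Chchd10 on the opposite strand, and whether counting used the strand is not stated.

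Mmp12, the elastase of macrophages, had 0.399, 1.84 and 0.288 FPKM in Sham, 7.94, 16.7 and 9.17 in SCI and 8.42, 5.54 and 6.52 in FIPI. Its rise was 13.7-fold (log2 fold change 3.78, SE 0.67, adjusted p = 0.0024), every SCI mouse being above every Sham mouse. As for Mmp13, the Sham 2 mouse was the highest of the Sham mice. Without it, the log2 fold changes in SCI were 5.07 for Mmp12 and 6.14 for Mmp13. Mmp27, the last of the run with measurable RNA, had 2, 2 and 0 counts in Sham, 147, 115 and 101 in SCI and 92, 44 and 61 in FIPI. Its pooled CPM in SCI was 84.3 times that in Sham (95% counting interval 32.6 to 311).

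**Figure D2:**
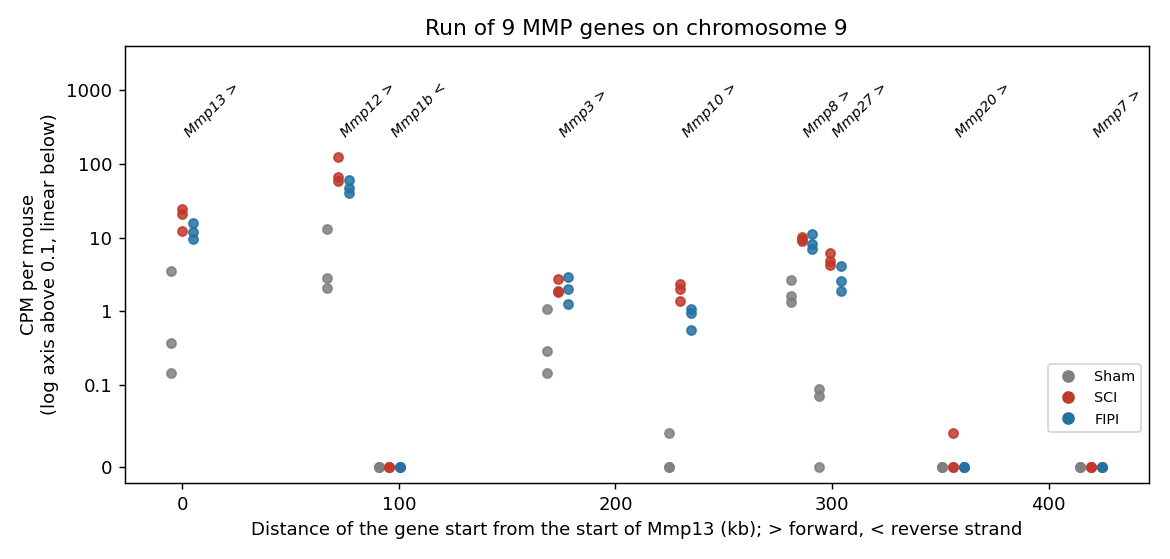
CPM per mouse (vertical axis, logarithmic above 0.1 and linear below it) of the 9 MMP genes of the run against the distance of each gene's start from that of Mmp13 in kb, by group. For the 6 genes tested every SCI mouse lies above every Sham mouse, and Mmp1b, Mmp20 and Mmp7 lie at or near 0.

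The gelatinases, which cut denatured collagen and the type IV collagen of basement membranes, parted. Mmp2, gelatinase A (chr8:92827291-92853420, forward strand), stood at 3.62, 5.45 and 5.14 FPKM in Sham, 34.7, 41.01 and 42.8 in SCI and 32.9, 39.9 and 37.4 in FIPI. This was a rise of 8.48-fold in SCI (log2 fold change 3.09, SE 0.15, adjusted p = 4.69e-08), with no overlap between injured and Sham mice. Mmp9, gelatinase B, stood at 5.91, 6.36 and 5.05 FPKM in Sham, 5.05, 4.85 and 3.96 in SCI and 3.92, 9.27 and 8.44 in FIPI. The SCI and Sham ranges overlapped and the log2 fold change was -0.29 (SE 0.31, adjusted p = 0.438), with a 95% interval from -1.02 to 0.44. The interval holds both no change and a fall past the limit of 0.5. All 9 mice share 1 estimate of the spread, and without the FIPI 1 mouse the adjusted p was 0.0326, with a log2 fold change of -0.29 that still lay inside the limit.

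Membrane-type MMPs, which sit on the cell surface, moved in both directions. Mmp14 (chr14:54431612-54445364, forward strand), which together with TIMP2 activates the precursor of MMP2, was the MMP with the highest mean FPKM over the 9 mice. It stood at 8.16, 9.39 and 10.1 FPKM in Sham, 75.7, 95.9 and 91.7 in SCI and 70.2, 77.7 and 59.6 in FIPI. Its rise of 9.73-fold in SCI (log2 fold change 3.28, SE 0.13, adjusted p = 2.05e-09) left a wide gap between injured and Sham mice. Mmp14 made up between 14.7% and 17.4% of the summed FPKM of the MMPs in Sham and between 40.2% and 41.8% in SCI. Mmp25, anchored by a lipid and made by leukocytes, had 24, 21 and 24 counts in Sham, 56, 94 and 64 in SCI and 40, 48 and 54 in FIPI and rose 2.92-fold (log2 fold change 1.55, SE 0.25, adjusted p = 6.51e-05). Mmp16 stood at 0.799, 0.698 and 0.783 FPKM in Sham, 1.07, 1.32 and 1.18 in SCI and 1.23, 0.907 and 1.04 in FIPI, a rise of 1.60-fold (log2 fold change 0.68, SE 0.14, adjusted p = 0.000543). Neither gene overlapped between SCI and Sham.

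Mmp24, a membrane-type MMP known from neurons, and Mmp17, which has a lipid anchor, fell. Mmp24 stood at 7.18, 5.45 and 6.20 FPKM in Sham, 3.12, 3.08 and 2.76 in SCI and 3.74, 3.54 and 3.99 in FIPI, 2.06-fold lower in SCI (log2 fold change -1.04, SE 0.11, adjusted p = 6.15e-07). Mmp17 stood at 6.54, 5.28 and 5.64 FPKM in Sham, 3.72, 2.92 and 2.65 in SCI and 3.78, 3.87 and 3.96 in FIPI, 1.84-fold lower in SCI (log2 fold change -0.88, SE 0.12, adjusted p = 1.25e-05). All Sham mice were above all injured mice for both. Of the exonic bases of Mmp24, 13.6% are shared with BC029722 on the opposite strand, so its level is uncertain. The neuron markers summed to between 6874 and 7740 CPM in Sham, between 1948 and 2898 CPM in SCI and between 3362 and 4043 CPM in FIPI, and their part in the fall was not tested. Mmp15 led the Sham MMPs with 15.7, 15.4 and 16.1 FPKM in Sham, 13.6, 13.5 and 13.1 in SCI and 12.7, 15.4 and 14.96 in FIPI. It was lower in each SCI mouse than in each Sham mouse, but its log2 fold change of -0.20 (SE 0.069, adjusted p = 0.0189) lay inside the limit of 0.5, and its share of the MMP sum went from between 25.4% and 28.2% to between 5.87% and 7.25%.

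The remaining MMPs tested all rose, beside 24.4% of all genes. Mmp19, a protease of basement membranes, stood at 1.32, 1.74 and 1.10 FPKM in Sham, 7.91, 8.71 and 7.14 in SCI and 6.61, 5.52 and 6.88 in FIPI, a rise of 5.85-fold (log2 fold change 2.55, SE 0.15, adjusted p = 3.09e-09). Of its exonic bases, 22.3% are shared with Tmem198b on the opposite strand, so its level is uncertain. Mmp23 stood at 1.58, 2.51 and 3.10 FPKM in Sham, 9.22, 12.1 and 10.98 in SCI and 8.62, 10.5 and 10.9 in FIPI and was 4.55-fold higher (log2 fold change 2.19, SE 0.21, adjusted p = 4.82e-06). Mmp28, epilysin, stood at 1.55, 1.65 and 1.55 FPKM in Sham, 2.39, 2.23 and 2.63 in SCI and 2.01, 2.49 and 2.68 in FIPI and was 1.55-fold higher (log2 fold change 0.64, SE 0.13, adjusted p = 0.000564). No Sham mouse reached the lowest SCI mouse for any of these. With offsets for GC content and length, the log2 fold change of Mmp28 was 0.50, inside the limit, and 12.03% of its exonic bases are shared with 1700020L24Rik.

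Proteoglycanases of the ADAMTS family, which cut aggrecan, brevican and versican, rose in 4 of 7 cases (57.1%), beside 24.4% of all genes. Adamts1 stood at 7.11, 7.18 and 6.17 FPKM in Sham, 16.5, 16.4 and 22.7 in SCI and 14.9, 14.3 and 18.8 in FIPI, a rise of 2.78-fold (log2 fold change 1.47, SE 0.15, adjusted p = 2.39e-05). Adamts15 stood at 0.353, 0.711 and 0.655 FPKM in Sham, 1.91, 1.63 and 2.62 in SCI and 1.92, 1.68 and 1.71 in FIPI and was 3.64-fold higher (log2 fold change 1.86, SE 0.25, adjusted p = 0.000139). In both, all injured mice were above all Sham mice. Adamts9 stood at 0.578, 0.669 and 0.778 FPKM in Sham, 1.32, 1.57 and 1.70 in SCI and 1.29, 1.35 and 1.23 in FIPI (2.31-fold, log2 fold change 1.21, SE 0.12, adjusted p = 4.6e-07). Adamts8, with 21, 22 and 22 counts in Sham, 35, 56 and 69 in SCI and 42, 42 and 37 in FIPI, was 2.32-fold higher (log2 fold change 1.22, SE 0.28, adjusted p = 0.00123). These 4 genes had no overlap between SCI and Sham, although 9.18% of the exonic bases of Adamts9 lie on A730049H05Rik and 10.6% of those of Adamts8 on Gm29724. Adamts4 (chr1:171250421-171260637, forward strand), the ADAMTS gene with the highest mean FPKM over the 9 mice, stood at 26.5, 25.4 and 27.9 FPKM in Sham, 23.6, 27.6 and 25.3 in SCI and 22.99, 22.3 and 24.7 in FIPI. Its groups overlapped, with a log2 fold change of -0.03 and a 95% interval from -0.18 to 0.12, which does not reach the limit of 0.5 in either direction. Its share of the ADAMTS sum was between 44.2% and 48.2% in Sham and between 27.1% and 32.8% in SCI. Adamts5, which neighbours Adamts1 on chromosome 16 at a gap of 53.1 kb, had a log2 fold change of 0.25 (SE 0.11, adjusted p = 0.06), and Adamts20 one of 0.11 (SE 0.11, adjusted p = 0.39).

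Procollagen N-proteinases, which trim the amino end of fibrillar procollagens, were all called, in opposite directions, beside 47.0% of all genes. Adamts2 stood at 2.86, 3.35 and 3.91 FPKM in Sham, 7.13, 7.25 and 8.32 in SCI and 6.45, 7.62 and 8.18 in FIPI, a rise of 2.29-fold (log2 fold change 1.19, SE 0.12, adjusted p = 4.72e-06). Adamts14 stood at 0.333, 0.331 and 0.280 FPKM in Sham, 1.80, 2.20 and 2.17 in SCI and 1.66, 1.49 and 1.71 in FIPI, a rise of 6.66-fold (log2 fold change 2.74, SE 0.15, adjusted p = 1.29e-09). Adamts3, which also activates the growth factor VEGF-C, went the other way. It stood at 1.60, 1.30 and 1.61 FPKM in Sham, 0.603, 0.599 and 0.645 in SCI and 0.848, 0.932 and 0.855 in FIPI and was 2.39-fold lower in SCI (log2 fold change -1.26, SE 0.15, adjusted p = 2.32e-06). None of the 3 overlapped between SCI and Sham.

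Of the other ADAMTS genes, 8 were tested, of which 3 rose (37.5%) and 2 fell (25%), beside 24.4% and 22.5% of all genes. Adamts12 (chr15:11064790-11349231, forward strand) and Adamts7 (chr9:90163069-90208071, forward strand), related proteases that cut cartilage oligomeric matrix protein, showed steep rises. Adamts12 stood at 0.0440, 0.214 and 0.137 FPKM in Sham, 1.31, 1.33 and 1.88 in SCI and 1.34, 1.11 and 1.25 in FIPI, a rise of 11.5-fold (log2 fold change 3.52, SE 0.35, adjusted p = 2.22e-05). Adamts7 stood at 0.230, 0.218 and 0.298 FPKM in Sham, 1.92, 2.12 and 2.81 in SCI and 1.66, 1.77 and 1.75 in FIPI, a rise of 9.31-fold (log2 fold change 3.22, SE 0.18, adjusted p = 1.28e-09). Neither had an injured mouse near the Sham range. Adamts10, which acts on fibrillin microfibrils, stood at 6.26, 7.31 and 7.07 FPKM in Sham, 13.5, 12.7 and 15.2 in SCI and 10.9, 11.01 and 12.7 in FIPI, a rise of 2.05-fold (log2 fold change 1.04, SE 0.081, adjusted p = 4.04e-08), also with no overlap. Adamts18 had 26, 17 and 20 counts in Sham, 16, 4 and 5 in SCI and 21, 23 and 14 in FIPI, and passed the filter through Sham and FIPI. Its fitted level was 2.65-fold lower in SCI (log2 fold change -1.41, SE 0.48). Adamts19 had 42, 39 and 51 counts in Sham, 25, 27 and 40 in SCI and 26, 32 and 29 in FIPI, with 1.51-fold lower counts in SCI (log2 fold change -0.60, SE 0.25, adjusted p = 0.0496) and an overlap between the SCI 3 and Sham 2 mice. Both falls rest on few counts. Adamts18 was not called without the Sham 1, SCI 2 or SCI 3 mouse, where its log2 fold change was -1.16, -1.07 and -1.15. Without the SCI 1 mouse it was -2.28. Adamts19 was not called in 13 of 19 alternative fits. Adamts6, Adamts16 and Adamts17 had log2 fold changes of -0.14, 0.064 and -0.19 and were not called.

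**Figure D3:**
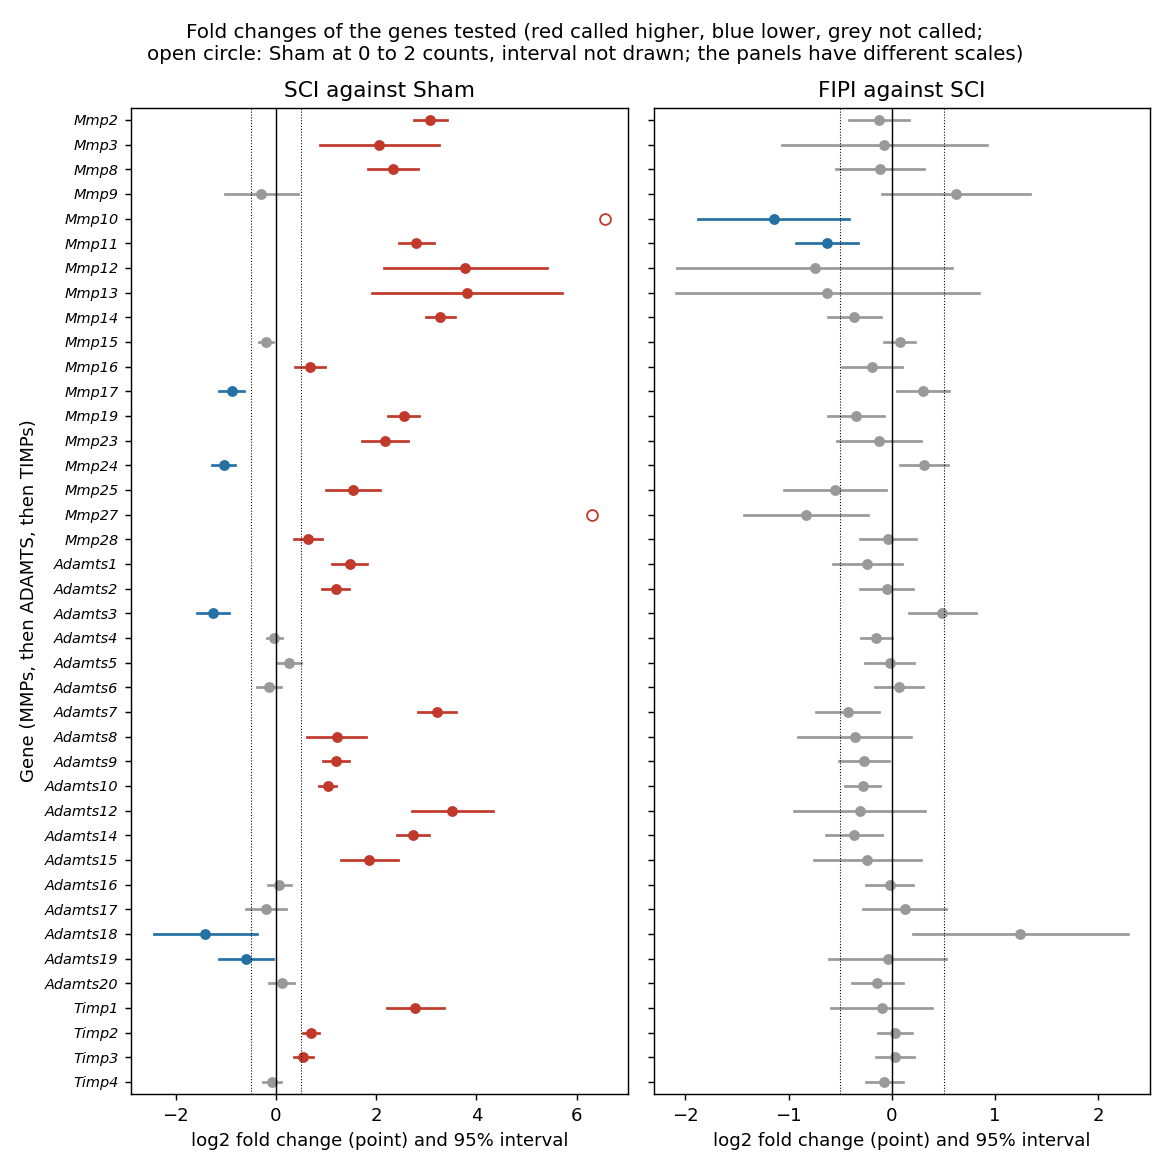
log2 fold change of the 40 members tested (points) with 95% intervals (lines) in SCI against Sham (left) and FIPI against SCI (right), on separate scales, with red for members called higher, blue for lower and grey for the rest. Open circles mark Mmp10 and Mmp27, whose Sham counts were 0 to 2, and dotted lines mark the limit of 0.5. On the left, Mmp3, Mmp10, Mmp13, Mmp27 and Adamts18 passed the filter only through groups where they were higher, so their colours and intervals are a description. On the right only Mmp10 and Mmp11 are called, at -1.15 and -0.63.

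Among the inhibitors, Timp1 had the largest rise. Timp1 (chrX:20870166-20874735, forward strand), the inducible member of the family, stood at 6.98, 11.3 and 6.33 FPKM in Sham, 44.97, 68.6 and 52.1 in SCI and 45.4, 55.5 and 56.1 in FIPI, a rise of 6.89-fold in SCI (log2 fold change 2.78, SE 0.24, adjusted p = 1.83e-05) with no overlap. Timp2 (chr11:118301069-118355740, reverse strand), the member with the highest mean FPKM of all 45, stood at 118, 123 and 121 FPKM in Sham, 214, 169 and 194 in SCI and 208, 194 and 197 in FIPI. Its rise was 1.63-fold (log2 fold change 0.70, SE 0.078, adjusted p = 1.4e-06), again with no overlap. Timp3, which is bound to the matrix and also blocks ADAMTS proteases, stood at 11.2, 13.8 and 14.7 FPKM in Sham, 18.8, 18.3 and 19.6 in SCI and 18.5, 19.3 and 21.2 in FIPI, a rise of 1.46-fold (log2 fold change 0.54, SE 0.087, adjusted p = 7.92e-05). With upper-quartile factors its log2 fold change was 0.48 and without the Sham 1 mouse 0.44, both inside the limit. Timp4 stood at 13.5, 13.5 and 11.4 FPKM in Sham, 13.4, 11.8 and 10.5 in SCI and 11.1, 11.4 and 12 in FIPI. Its groups overlapped and its log2 fold change was -0.075, with a 95% interval from -0.26 to 0.11. Timp1, Timp3 and Timp4 lie within the synapsin genes Syn1, Syn3 and Syn2 on the opposite strand, and 21.3% of the exonic bases of Timp3 lie on exons of Syn3.

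The summed level of each class, in FPKM per mouse, described the balance of proteases and inhibitors. MMPs summed to between 55.6 and 60.8 FPKM in Sham, between 188.2 and 230.8 in SCI and between 172.9 and 195 in FIPI. TIMPs summed to between 150 and 161.7 FPKM in Sham, between 268.1 and 290.9 in SCI and between 279.7 and 286.3 in FIPI. ADAMTS genes summed to between 55.4 and 57.9 FPKM in Sham, between 79.6 and 93.6 in SCI and between 73.9 and 83.03 in FIPI. The ratio of the MMP to the TIMP sum was 0.370, 0.376 and 0.378 in the Sham mice, 0.647, 0.861 and 0.793 in the SCI mice and 0.611, 0.697 and 0.613 in the FIPI mice. It was higher in every injured mouse than in every Sham mouse, while the SCI and FIPI mice overlapped. Without Mmp14 it was between 0.312 and 0.318 in Sham and between 0.387 and 0.503 in SCI. The ratio of the ADAMTS to the TIMP sum went the other way. It was between 0.355 and 0.378 in Sham, between 0.274 and 0.338 in SCI and between 0.262 and 0.290 in FIPI, lower in every injured mouse than in every Sham mouse. The sums describe RNA and not active protease.

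**Figure D4:**
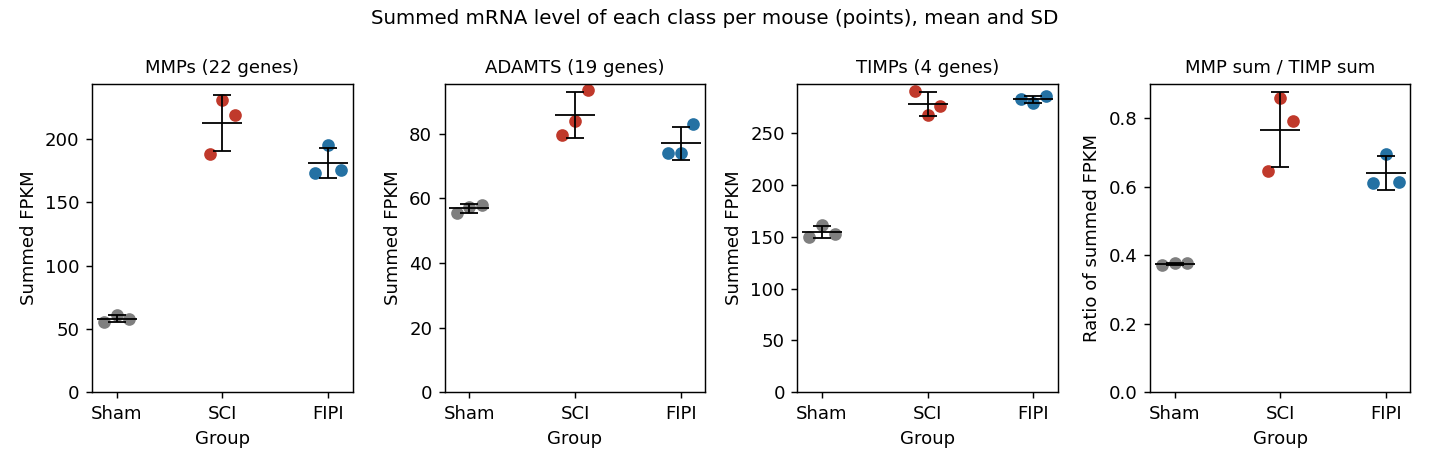
Summed FPKM of the MMPs, ADAMTS genes and TIMPs and the ratio of the MMP to the TIMP sum in each mouse (points) by group, with the mean (long bar) and SD (error bars, n = 3). The ratio lies between 0.370 and 0.378 in Sham and between 0.611 and 0.861 in the injured mice.

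Few members differed between FIPI and SCI. Of the 40 tested, 2 were called, both lower in FIPI, where 3.06% of all genes were called, 0.695% as lower and 2.36% as higher. A count of 2 of 40 (5%) is near the 3.06% called in either direction. It is above the 0.695% called lower, but rests on 2 genes. Of the members, 30 had a negative and 10 a positive log2 fold change, where 49.7% of all genes were positive, and their median was -0.13 beside -0.001 for all genes. Mmp11 was 1.55-fold lower in FIPI (log2 fold change -0.63, SE 0.14, adjusted p = 0.0157), with 701, 704 and 961 counts in the SCI mice and 542, 426 and 518 in the FIPI mice, and no overlap. The call was lost without the SCI 3, FIPI 2 or FIPI 3 mouse, where the log2 fold change was -0.46, -0.52 and -0.64 with adjusted p = 0.0391, 0.0762 and 0.0501. Mmp10 had 33, 57 and 47 counts in the SCI mice and 21, 13 and 26 in the FIPI mice. It was 2.21-fold lower in FIPI (log2 fold change -1.15, SE 0.34, adjusted p = 0.0485), and none of these mice overlapped. Its adjusted p lay near the limit, and without the Sham 1, SCI 2, SCI 3, FIPI 1, FIPI 2 or FIPI 3 mouse it was between 0.0547 and 0.215. The macrophage and microglia markers summed to between 6328 and 9091 CPM in FIPI, below the SCI range, although none of the 11 was called by edgeR's quasi-likelihood test. Markers of pericytes (566.6 to 606.9 CPM), endothelium (386 to 477.4 CPM), osteoclasts (113.5 to 121.9 CPM) and cartilage and bone (54.7 to 71.4 CPM) also summed to less in every FIPI mouse than in every SCI mouse. Of their genes, Rgs5 and Col10a1 were called lower. Bglap, under the filter level of 0.422 CPM in the SCI mice, was called higher (log2 fold change 2.28). Col10a1 had a mean of 71.96 CPM in SCI and 10.6 in FIPI, while the cartilage and bone list had a median log2 fold change of 0.31. The part of any of these cell markers in the lower Mmp10 and Mmp11 was not tested.

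Several members lay near the limits in FIPI against SCI and were not called. They were singled out after their values were seen. Adamts10 passed the limit on the adjusted p and not that on the fold change (log2 fold change -0.28, SE 0.079, adjusted p = 0.0372). Mmp27 had a log2 fold change of -0.83 (SE 0.28, adjusted p = 0.0769) and every FIPI mouse was below every SCI mouse. It was called in 5 of 18 alternative fits, with adjusted p between 0.00286 and 0.0445. These were the fit without a filter, both fits with the replicate block, DESeq2 and the fit without the FIPI 1 mouse, where its log2 fold change was -1.19. Adamts3, one of the genes lower after injury, was higher in each FIPI mouse than in each SCI mouse (log2 fold change 0.49, SE 0.15, adjusted p = 0.0551). Mmp14 had a log2 fold change of -0.37 (SE 0.12, adjusted p = 0.0743) and overlapping groups, and Adamts7 one of -0.43 (SE 0.14, adjusted p = 0.0743) with no overlap. Without the SCI 1 mouse Adamts7 was called at -0.54. Adamts18 then had a log2 fold change of 2.12, where all mice gave 1.24. Because Adamts18 passed the filter through Sham and FIPI, both of its values are a description. Groups of FIPI and SCI did not overlap for 3 members that were higher and 8 that were lower in FIPI, where 15.7% and 14.5% of all genes did so. The TIMPs had log2 fold changes of -0.10, 0.029, 0.032 and -0.074 for Timp1 to Timp4, and their 95% intervals reached from -0.59 to 0.39 for Timp1 and from -0.14 to 0.19 for Timp2.

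Mmp9 varied widely within the FIPI group. It had 310 counts in the FIPI 1 mouse, 772 in the FIPI 2 mouse and 708 in the FIPI 3 mouse, against 431, 422 and 336 for SCI. The change of Mmp9 in FIPI against SCI, on the log2 scale, was 0.62 (SE 0.30, adjusted p = 0.264). Without the FIPI 1 mouse it was 0.91 with an adjusted p of 0.00423, so 1 mouse decided the call. The neutrophil markers summed to 23.9, 141.4 and 130.6 CPM in the same 3 FIPI mice and to 69.8, 57.4 and 56.2 CPM in the SCI mice, and the Schwann cell markers to 502.7, 1181 and 1161 CPM in the FIPI mice. Markers of red cells and marrow summed to 63.5, 171.7 and 224.2 CPM in the FIPI mice and to 226.2, 193.4 and 97.2 CPM in SCI. In Sham the neutrophil sums were 47.7, 111.3 and 38.95 CPM, with Mmp9 at 20.8, 22.01 and 17.9 CPM. Mmp9 stood at 18.1, 17.4 and 14.2 CPM in the SCI mice. The part of any of these markers in the level of Mmp9 was not tested.

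**Figure D5:**
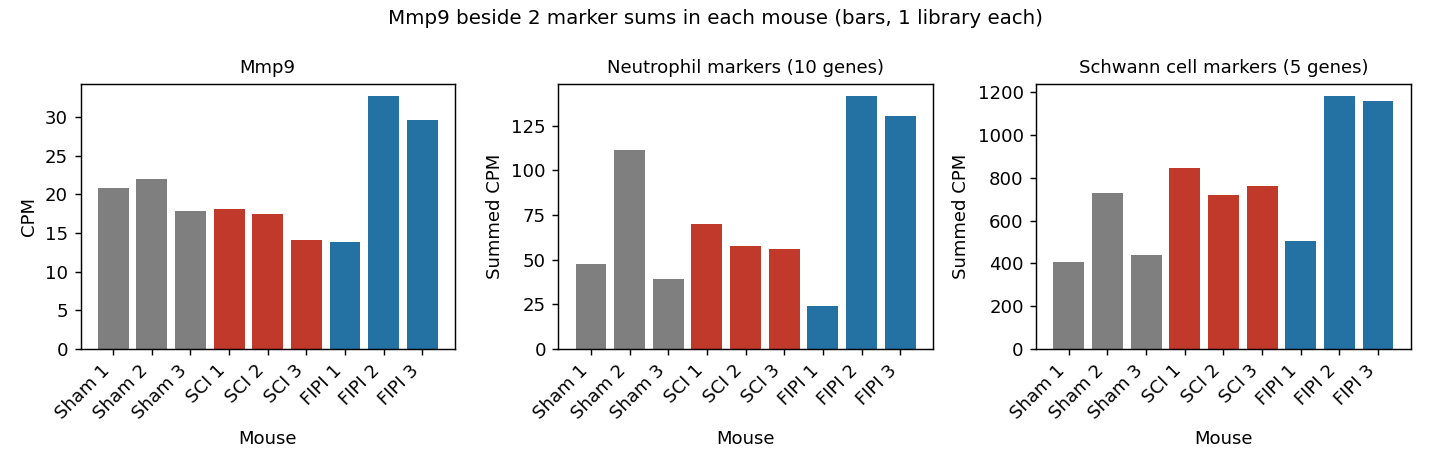
CPM of Mmp9 (left) and summed CPM of 10 neutrophil markers (middle) and of 5 Schwann cell markers (right) in each of the 9 mice, coloured by group. All 3 are low in the FIPI 1 mouse and high in the FIPI 2 and FIPI 3 mice.

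FIPI against Sham, which shares its groups with both other comparisons, gave 29 of 40 members called, 25 higher and 4 lower, where 38.1% of all genes were called, 21.2% as higher and 17.0% as lower. Without the 4 members that passed the filter through the injured groups alone, 21 of 36 were higher. The members had a median log2 fold change of 0.90 beside -0.003 for all genes. Mmp14 was 7.55-fold higher in FIPI than in Sham (log2 fold change 2.92, SE 0.13, adjusted p = 1.11e-08) and Mmp11 4.52-fold (log2 fold change 2.18, SE 0.16, adjusted p = 1.73e-07). The ratio of the pooled CPM of Mmp10 in FIPI to that in Sham was 58.2, with a 95% counting interval of 10 to 2340. Mmp17, Mmp24, Adamts3 and Adamts19 were the members lower than in Sham, and Adamts19 was not called in 10 of 19 alternative fits. Mmp16 and Adamts18, which were called in SCI against Sham, had log2 fold changes of 0.48 (SE 0.14, adjusted p = 0.0083) and -0.16 (SE 0.43, adjusted p = 0.756) in FIPI against Sham, and a difference between those comparisons was tested only as FIPI against SCI. The pooled CPM of Adamts13, from few counts, was 3.31 times as high in FIPI as in SCI (95% counting interval 1.69 to 6.95).

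Genes that act on the proteases are given by list, to be read beside the 24.4% of all genes that were higher and the 22.5% that were lower in SCI. Of 8 activators and receptors of activation tested, 5 rose and 1 fell in SCI (median log2 fold change 1.32). Plau, the urokinase that generates plasmin, stood at 8.42, 8.20 and 5.55 CPM in Sham, 87.8, 94.7 and 130.2 in SCI and 79.8, 53.6 and 52.8 in FIPI (log2 fold change 3.82, SE 0.28, adjusted p = 1.23e-05). Its receptor Plaur stood at 2.82, 3.06 and 2.00 CPM in Sham, 25.6, 37.2 and 35.3 in SCI and 24.9, 21.4 and 22.2 in FIPI, a log2 fold change of 3.64 (SE 0.18, adjusted p = 2.89e-09) in SCI, and was lower in FIPI than in SCI (log2 fold change -0.52, SE 0.14, adjusted p = 0.0391). Furin, which removes the propeptide of Mmp11 and of the membrane types, rose by a log2 fold change of 1.53 (SE 0.066, adjusted p = 1.44e-10), and Klk8 by 1.92 (SE 0.24, adjusted p = 1.66e-05). Of 11 inhibitors other than TIMPs, 4 rose and 3 fell (median 0.01). The protease trap A2m rose with a log2 fold change of 1.71 (SE 0.15, adjusted p = 4.28e-06). Tfpi2, counted among those that rose, had 0.287, 0.604 and 0.459 CPM in Sham and did not reach the filter level of 0.422 CPM in every Sham mouse. Its log2 fold change of 3.76 (SE 0.25) is a description. Spock3, a testican, fell, with -2.02 (SE 0.084, adjusted p = 1.26e-10). In FIPI, Spock3 (log2 fold change 0.55, SE 0.084, adjusted p = 0.00308) and Spock1 (log2 fold change 0.53, SE 0.091, adjusted p = 0.0059) were higher than in SCI. Of 10 docking, carrier and uptake proteins 7 rose and 0 fell (median 1.24), among them Thbs1 (log2 fold change 3.36, SE 0.43, adjusted p = 0.000478), Sdc1 (log2 fold change 3.17, SE 0.20, adjusted p = 5.56e-07), Thbs2 (log2 fold change 2.28, SE 0.15, adjusted p = 5.09e-07) and Cd44 (log2 fold change 1.95, SE 0.12, adjusted p = 1.64e-07). By edgeR's quasi-likelihood test none of the 10 was called in FIPI against SCI.

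Of 17 cytokines and transcription factors known to induce MMPs, 14 rose and 1 fell in SCI (median 1.67). Osm, Il1b, Tnf and Tgfb1 rose by log2 fold changes of 3.23, 3.04, 3.03 and 3.03. Osm and Tnf did not reach the filter level of 0.422 CPM in every Sham mouse, so their values against Sham are a description. Tnf stood at 0.239, 0.475 and 0.418 CPM in Sham, 2.01, 4.17 and 3.29 in SCI and 2.01, 1.27 and 1.38 in FIPI and was lower in FIPI than in SCI (log2 fold change -1.02, SE 0.29, adjusted p = 0.0408). Of 14 other genes of the ADAM family and tolloids, not all of which encode active proteases, 8 rose and 4 fell (median 0.71). Adam8, a leukocyte protease, stood at 8.90, 12.2 and 8.85 CPM in Sham, 222, 316 and 253 in SCI and 192, 138 and 138 in FIPI, with a log2 fold change of 4.72 (SE 0.23, adjusted p = 6.32e-07) in SCI and -0.76 (SE 0.19, adjusted p = 0.0481) in FIPI against SCI. Adam12 and the procollagen C-proteinase Bmp1 rose by log2 fold changes of 3.36 (SE 0.18, adjusted p = 2.38e-07) and 1.86 (SE 0.060, adjusted p = 2.34e-11). Adam23, known from neurons, fell (log2 fold change -1.50, SE 0.12, adjusted p = 6.69e-07). Of 7 ADAMTS-like proteins, which lack the protease domain, 2 rose, Adamtsl2 (log2 fold change 1.24, SE 0.18, adjusted p = 6.02e-05) and Adamtsl3 (log2 fold change 1.12, SE 0.16, adjusted p = 2.47e-05), and Adamtsl2 was lower in FIPI than in SCI (log2 fold change -0.63, SE 0.17, adjusted p = 0.0425).

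Substrates were taken as 2 lists, and the difference between the lists was not tested. All 22 collagens and glycoproteins of the list rose in SCI (median 2.54), led by Spp1, Col1a1, Eln and Col3a1 with log2 fold changes of 5.30, 4.73, 3.92 and 3.84. Both type IV collagens of the list, which build basement membranes, were lower in FIPI than in SCI. Col4a1 stood at 62.1, 87.9 and 78.2 CPM in Sham, 596, 807 and 819 in SCI and 521, 431 and 391.5 in FIPI and had a log2 fold change of -0.73 (SE 0.17, adjusted p = 0.0361) in FIPI against SCI, and Col4a2 had a log2 fold change of -0.62 (SE 0.12, adjusted p = 0.0121). The other list held 16 genes, made up of lecticans and other proteoglycans together with link proteins, tenascins and Reln. Of these 16, 7 rose and 3 fell in SCI (median 0.14), where 24.4% and 22.5% of all genes did so. Bgn, Tnc and Hspg2 rose by log2 fold changes of 3.66, 2.54 and 2.13. Hapln1 and Hapln4, link proteins that tie lecticans to hyaluronan around neurons, fell. Hapln1 had a log2 fold change of -2.44 (SE 0.14, adjusted p = 1.34e-09) in SCI and was higher in FIPI than in SCI (log2 fold change 0.66, SE 0.14, adjusted p = 0.0126). The values for Hapln4 were -1.88 (SE 0.14, adjusted p = 9.84e-07) and 0.64 (SE 0.13, adjusted p = 0.0209). Of the 10 neuron markers, 7 were also higher in FIPI than in SCI, and their part in the levels of the link proteins was not tested.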

How the data were processed

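Per the labels and the study's methods, RNA of 9 spinal cords was enriched with oligo(dT) beads, primed at random and read on the Illumina platform. The authors trimmed the reads and deposited raw counts per gene. The submitters' processing notes name the genome build GRCm38 and R 4.2.3. The aligner, the counting program and the strand setting are not given in the sources used here.

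Ensembl identifiers were matched to GENCODE M21 (52403 of 52550). The tests were run with edgeR 4.0.16 under R 4.3.3. The model used TMM factors, the filter filterByExpr by group, 1 mean per group over all 9 mice and robust quasi-likelihood. Adjusted p-values are those of Benjamini and Hochberg over 18699 genes. The biological coefficient of variation was 9.3%. The SE is the log2 coefficient divided by the square root of the F statistic, and 95% intervals are single-gene intervals. The limits of 0.5 and 0.05 come from the study's methods. FPKM is the count per total count and exonic length, and CPM is scaled by TMM. The prior count for permutation tests was 2. Upstream sequences are those of RefSeq on GRCm38.p6. Intervals of pooled counts cover counting error only. Replicates are separate mice, and no pair of libraries of a group matched within sampling noise.

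Members were taken by symbol, but the family itself and the lists of pathway genes and cell markers were chosen with earlier results of these data known. Members called in SCI against Sham or FIPI against SCI, and the 10 with the highest mean FPKM, were named with the value in every mouse. List genes were named when among the 4 largest changes called in SCI against Sham or when called in FIPI against SCI, and the values of some are given as fold changes alone. A list gene that met this rule is not reported here by name. Alternatives were RLE and upper-quartile factors, 2 other filters, a block for the replicate number, a correction by offsets for GC content and length (99.9% of genes), both together, the groups fitted alone, DESeq2 1.42.0, limma-voom (limma 3.58.1), no fold limit and each mouse left out. Steps were tested on simulated data. Behaviour, staining and protein data were not analysed here.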

Additional observations from a re-analysis of the deposited data

How the results depend on the processing

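Members called in SCI against Sham numbered 26 to 32 over the alternatives, and those in FIPI against Sham 25 to 31, against 31 and 29 as reported. With each mouse left out, the ranges were 28 to 31 and 28 to 30. For FIPI against SCI the count was 2 as reported, 1 with at least 10 counts in every mouse, where Mmp10 was not tested, and 0 to 4 with each mouse left out. By edgeR's quasi-likelihood test it was 0 without SCI 3, FIPI 2 or FIPI 3, where 11, 8 and 14 members had an unadjusted p under 0.05 against 15 as reported, and DESeq2 called 2 with all mice. It was 1 without Sham 1 or SCI 2, 3 without FIPI 1 and 4 without SCI 1. Those 4 include Adamts18, which passed the filter through Sham and FIPI. With upper-quartile factors Adamts3 was called higher and Mmp10 was not called.

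Same-numbered mice are different animals. Their deviations correlated between -0.072 and 0.11, so the numbers did not pair the samples. With the replicate number as a block the counts were 30, 2 and 28, with Mmp10 not called (adjusted p = 0.0698) and Mmp27 called (adjusted p = 0.0389) in FIPI against SCI. DESeq2 gave Mmp10 no adjusted p there.

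Signs turned for log2 fold changes near 0 that were not called. With each mouse left out, those in SCI against Sham ran from -0.168 to 0.01 for Timp4 and from -0.089 to 0.022 for Adamts4, with 0.014 as another positive value. Those in FIPI against SCI ran from -0.156 to 0.022 for Timp4, from -0.025 to 0.072 for Timp3, from -0.054 to 0.114 for Timp2, with -0.006 as another negative value, and from -0.226 to 0.087 for Timp1. In FIPI against Sham, Adamts18 ran from -0.313 to 0.081, with 0.039 as another positive value, and was 0.004 with the GC and length offsets and 0.014 with the block as well. The cause was not tested. Members with few counts were measured with low precision.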
